A study of Mus musculus with 5 samples.

Results

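The 10 genes described here belong to the smooth muscle contractile apparatus: Acta2, Actg2, Tagln, Cnn1, Cnn2, Myl9, Tpm1, Tpm2, Cald1 and the transcription factor gene Srf. They were measured in 5 RNA-seq libraries of mouse embryonic fibroblasts under reprogramming. They were taken by symbol, and all 10 were found among the 29267 genes of the deposited tables. The cells were embryonic fibroblasts of the ICR strain. At day 8 there was a library treated with mastoparan (a wasp-venom peptide), a library treated with paraquat (a redox-cycling herbicide) and an untreated control, and the genotype label of all 3 names CypD expression. At day 4 there was a library expressing CypD (cyclophilin D, the mitochondrial protein encoded by Ppif) and a Flag control. The labels name no doses, no reprogramming factors and no number of cultures behind a library. Each group had 1 library, so no difference has a replicate check and no test between conditions was possible; the 95% intervals below cover counting error only.

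Smooth muscle cells contract through actin filaments (Acta2 and Actg2 encode the smooth muscle actins) that slide along myosin, whose regulatory light chain is Myl9. Tropomyosins (Tpm1, Tpm2), calponins (Cnn1, Cnn2), caldesmon (Cald1) and transgelin (Tagln, also called SM22) bind along the filament. Most of these genes carry CArG boxes, the binding motif of serum response factor (Srf), which works with the actin-sensing cofactors Mrtfa and Mrtfb or, in differentiated smooth muscle, with myocardin (Myocd). Fibroblasts use many of the same genes, and Acta2 and Tagln are the usual markers of contractile fibroblasts.

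The promoters below show where CArG boxes lie upstream of the members; capitals mark the boxes. The sequences are RefSeq, build GRCm38.p6, 5′ to 3′ on the strand of the gene, and positions count back from the annotated transcript start. A box was taken as CC, 6 bases of A or T, and GG, a pattern that is its own reverse complement, so that both strands are read at once; no box overlapped another. Srf, whose own promoter is a known Srf target, holds 2 exact boxes (bases 170 to 21 before the start; chr17:46556183-46556332, minus strand), and Cnn2 holds 1 (bases 170 to 21; chr10:79988430-79988579, plus strand). Myl9 holds 1 exact box and 1 with a single C or G in its core (bases 200 to 51; chr2:156775264-156775413, plus strand). Acta2 holds 2 boxes of the second kind (bases 94 to 65, chr19:34255438-34255467, and bases 44 to 15, chr19:34255388-34255417, minus strand). For Acta2 the RefSeq start lies inside the gene as GENCODE M21 draws it, so that both stretches precede the RefSeq start but fall within the first, untranslated exon of the GENCODE transcript.
Srf: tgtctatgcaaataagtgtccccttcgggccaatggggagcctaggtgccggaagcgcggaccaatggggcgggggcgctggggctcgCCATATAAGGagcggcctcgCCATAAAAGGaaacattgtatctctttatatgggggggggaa
Cnn2: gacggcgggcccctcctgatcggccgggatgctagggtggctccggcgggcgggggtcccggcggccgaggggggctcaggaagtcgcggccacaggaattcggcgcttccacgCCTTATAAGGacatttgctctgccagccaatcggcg
Myl9: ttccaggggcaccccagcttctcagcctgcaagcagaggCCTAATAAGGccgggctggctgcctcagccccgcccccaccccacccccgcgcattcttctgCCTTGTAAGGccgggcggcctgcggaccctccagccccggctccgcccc
Acta2, upstream box: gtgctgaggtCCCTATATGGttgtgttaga
Acta2, downstream box: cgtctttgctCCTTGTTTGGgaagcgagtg

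Of the 10 members 8 were matched in the promoter table; Tagln and Actg2 are the other two. Within the 250 bases before the start, 3 of the 8 held an exact box and 1 more, Acta2, held only boxes with 1 core base off. Over all 32851 promoter windows, 1.47% held an exact box, 0.0183% held at least 2, as Srf does, and 7.24% held a box with 1 core base off. The windows of Tpm1, Tpm2, Cald1 (2 windows) and Cnn1 held no box of either kind. A match is a description of the sequence; binding was not measured.

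The libraries were shallow, with total expected counts of 2426015 to 3426702, so that 3 counts come to about 1 CPM (counts scaled to a library of 1000000). Ppif had 2629 counts with CypD against 112 with Flag, or 761 against 44.2 CPM. In the day-8 mastoparan, paraquat and control libraries it had 33.3, 34.2 and 29.2 CPM, which goes against their CypD label; they are called here by treatment and day. All 9 fibroblast markers fixed for the check, among them Col1a1, Col1a2, Vim and Fn1, were detected in every library, with a summed TPM (a level per transcript length, scaled to 1000000) of 3785 to 4607 at day 8 and 4995 to 5072 at day 4. Of the 7 markers of differentiated smooth muscle, Myocd had 1 count in the Flag library and 0 in the other four, and Myh11, the smooth muscle myosin heavy chain, had 0 to 2 counts. That list summed to 12.5 to 18.6 TPM at day 8 and 13.5 to 17.5 TPM at day 4, and its sum came mostly from Smtn (44 to 84 counts a library). The skeletal muscle regulators Myod1 and Myog had 0 counts in all 5 libraries. In bulk RNA, fewer cells of a type and less RNA per cell cannot be told apart.

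Per length, the members spanned more than 2 orders of magnitude. Tpm1 was the highest, with 311, 239 and 287 TPM in the day-8 mastoparan, paraquat and control libraries, and 299 and 323 TPM with CypD and Flag. Acta2 came next, with 172, 159, 182, 205 and 213 TPM in the same order of libraries, and its range lay wholly below that of Tpm1. Next came 5 members whose ranges over the 5 libraries overlap one another: Tpm2 (73.5 to 193 TPM), Tagln (70.4 to 144), Actg2 (53.05 to 128), Cald1 (80.6 to 105) and Cnn2 (68.4 to 101). Of these only Tpm2 reached into the range of Acta2. Myl9 (20.3 to 31.3 TPM) and Srf (14.9 to 30.5) overlapped each other and no other member. Cnn1, the calponin of differentiated smooth muscle, lay at 0.66 to 1.41 TPM from 3 to 7 counts a library, which is at the limit of detection. The 10 members summed to 1102, 1043 and 1121 TPM in the day-8 mastoparan, paraquat and control libraries and to 942 and 996 TPM in the CypD and Flag libraries.

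**Figure D1:**
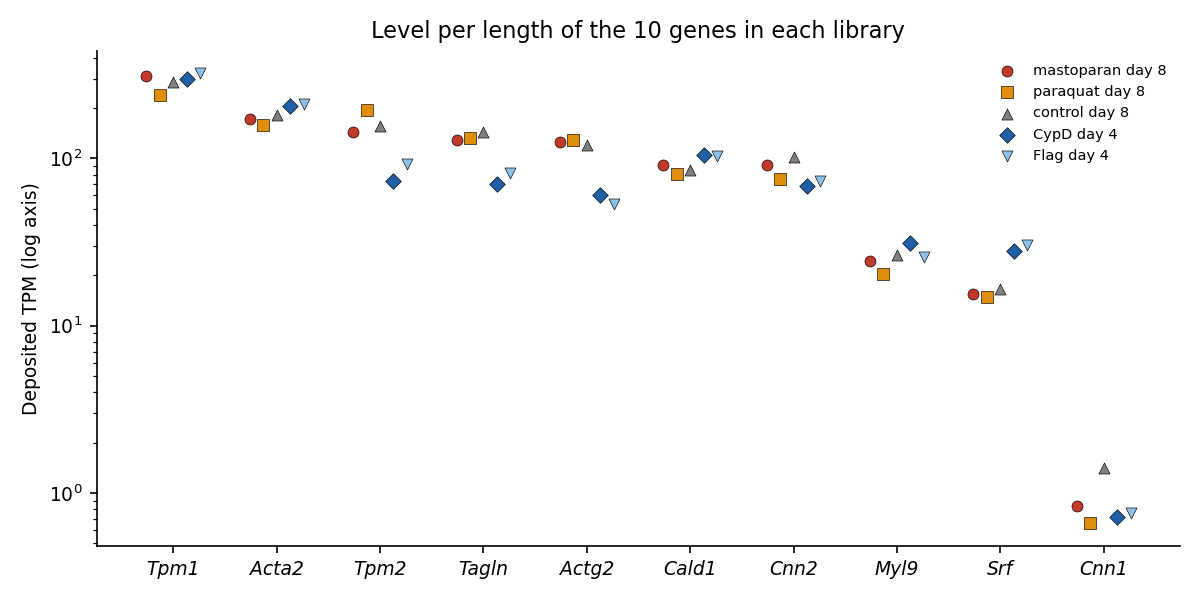
Deposited TPM (vertical log axis) of the 10 genes, ordered by their median, with 1 point for each library: mastoparan, paraquat and control at day 8, then CypD and Flag at day 4. Tpm1 lies highest at 239 to 323 TPM and Cnn1 lowest at 0.66 to 1.41 TPM, and for Tpm2, Tagln and Actg2 the 3 day-8 points sit above both day-4 points while for Srf they sit below.

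The largest differences among the members were between the days. The gamma smooth muscle actin gene Actg2 (ENSMUSG00000059430; mm10 chromosome 6, 83512905 to 83536265, minus strand) had 114, 136 and 107 CPM in the day-8 mastoparan, paraquat and control libraries, against 53 and 45 CPM with CypD and Flag. All 3 day-8 libraries were above both day-4 libraries, by 2.01-fold at the least and 3.01-fold at the most. Tropomyosin 2, Tpm2 (ENSMUSG00000028464; chromosome 4, 43514711 to 43523765, minus strand), had 120, 178 and 121 CPM in the day-8 mastoparan, paraquat and control libraries, against 61.4 and 60.4 CPM in the CypD and Flag libraries. The day-8 levels were again all above the day-4 levels, by 1.95-fold to 2.94-fold. On deposited TPM the Tpm2 gap was 1.56-fold at the least and 2.63-fold at the most.

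Transgelin, Tagln (ENSMUSG00000032085; chromosome 9, 45929619 to 45936058, minus strand), had 142, 173 and 154 CPM in the day-8 mastoparan, paraquat and control libraries, against 75 and 84.4 CPM in the CypD and Flag libraries. Its exons share 62.4% of their bases with Gm48529 on the opposite strand and 5.43% with Pcsk7, and the sources do not say whether counting used strand, so reads of these genes cannot be told apart from those of Tagln. Calponin 2, Cnn2 (ENSMUSG00000004665; chromosome 10, 79988584 to 79996062, plus strand), the calponin found in non-muscle cells, had 138, 153 and 151 CPM at day 8 in that order, against 106 and 99.1 CPM in the CypD and Flag libraries. For both genes the days did not overlap, and the gap was smaller for Cnn2 (1.3-fold to 1.55-fold) than for Tagln (1.68-fold to 2.3-fold). On deposited TPM the gap narrowed, to 1.03-fold at the least for Cnn2 and 1.56-fold for Tagln.

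Srf itself (ENSMUSG00000015605; chromosome 17, 46548329 to 46556175, minus strand) went the other way. It had 45.3, 51.1 and 46.4 CPM in the day-8 mastoparan, paraquat and control libraries, against 77.9 and 82.5 CPM with CypD and Flag. All 3 day-8 libraries were below both day-4 libraries, which were 1.52-fold to 1.82-fold higher.

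The other members differed less between days. Alpha smooth muscle actin, Acta2 (ENSMUSG00000035783; chromosome 19, 34241090 to 34255590, minus strand), had 215, 234 and 219 CPM in the day-8 mastoparan, paraquat and control libraries, against 246 and 247 CPM in the CypD and Flag libraries. Caldesmon, Cald1 (ENSMUSG00000029761; chromosome 6, 34598500 to 34775473, plus strand), which blocks myosin from actin filaments, had 262, 268 and 240.3 CPM against 293 and 271 CPM in the same order. Both were lower at day 8 without overlap, but by small margins: the day-4 libraries were 1.05-fold to 1.15-fold higher for Acta2 and 1.01-fold to 1.22-fold higher for Cald1, and with DESeq2 size factors or upper-quartile factors the days overlapped for Cald1.

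Tropomyosin 1, Tpm1 (ENSMUSG00000032366; chromosome 9, 67022590 to 67049406, minus strand), overlapped between days, with 364, 324 and 326 CPM at day 8 against 337 and 351 CPM at day 4. Myosin light chain 9, Myl9 (ENSMUSG00000067818; chromosome 2, 156775420 to 156781658, plus strand), had 18.9, 18.6 and 16.2 CPM against 16.8 and 18.5 CPM and overlapped too. Cnn1 (ENSMUSG00000001349; chromosome 9, 22099216 to 22109630, plus strand) had 4, 3 and 7 counts at day 8 against 4 and 3 counts at day 4. Its day-8 values were nominally above those of day 4 in CPM but overlapped them in deposited TPM, and so few counts cannot show a difference. In all, 5 of 10 members were above and 3 were below day 4 in every day-8 library, where 28.5% and 28.1% of all 13584 genes tested were above and below. The 3 day-8 libraries differ in treatment and are not replicates of a day.

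**Figure D2:**
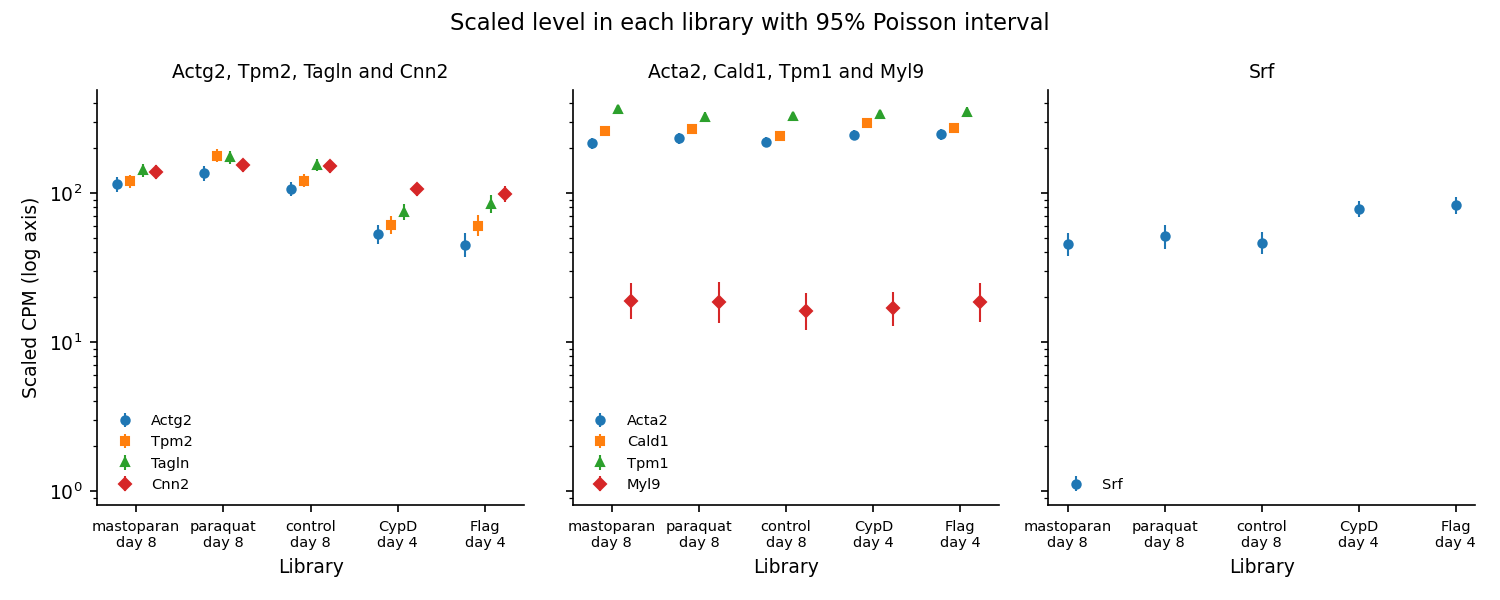
Scaled CPM (vertical log axis) in each of the 5 libraries with 95% Poisson intervals, for Actg2, Tpm2, Tagln and Cnn2 (left), Acta2, Cald1, Tpm1 and Myl9 (middle) and Srf (right). The left genes sit higher in the 3 day-8 libraries, for example 107 to 136 CPM against 45 to 53 CPM for Actg2, Srf sits lower, and the middle genes stay within a narrow range.

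The actins differed from each other between the days, and so did the tropomyosins. Shares of the counts of a pair need no scaling between libraries, but a trend along transcript length stays in them. Actg2 (1295 to 1319 bases) is shorter than Acta2 (1781), and Tpm2 (1025 to 1255) is shorter than Tpm1 (1650.2 to 1679.6). Of the counts of Actg2 and Acta2 together, Actg2 held 34.6% in the mastoparan library (95% exact Clopper-Pearson interval 31.6 to 37.8), 36.7% in the paraquat library (33.5 to 40.1) and 32.8% in the day-8 control (29.9 to 35.8). In the day-4 libraries that share was 17.7% with CypD (15.4 to 20.2) and 15.4% with Flag (12.9 to 18.2), and no day-8 interval reached a day-4 one. The 2 actin genes share little sequence: 0.403% of the 49-base windows of Acta2 transcripts occur in another gene, Actg1, and none of the windows of Actg2 do.

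Of the counts of Tpm2 and Tpm1 together, Tpm2 held 24.8% in the mastoparan library (22.5 to 27.2), 35.4% in the paraquat library (32.6 to 38.2) and 27.1% in the day-8 control (24.8 to 29.6). At day 4 it held 15.4% with CypD (13.5 to 17.4) and 14.7% with Flag (12.6 to 17). The days were again apart, and within day 8 the paraquat library stood above the other two. Short transcripts ran higher in the paraquat library, and the part of that trend in its Actg2 and Tpm2 shares was not tested. No 49-base window of either tropomyosin gene occurs in another gene.

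**Figure D3:**
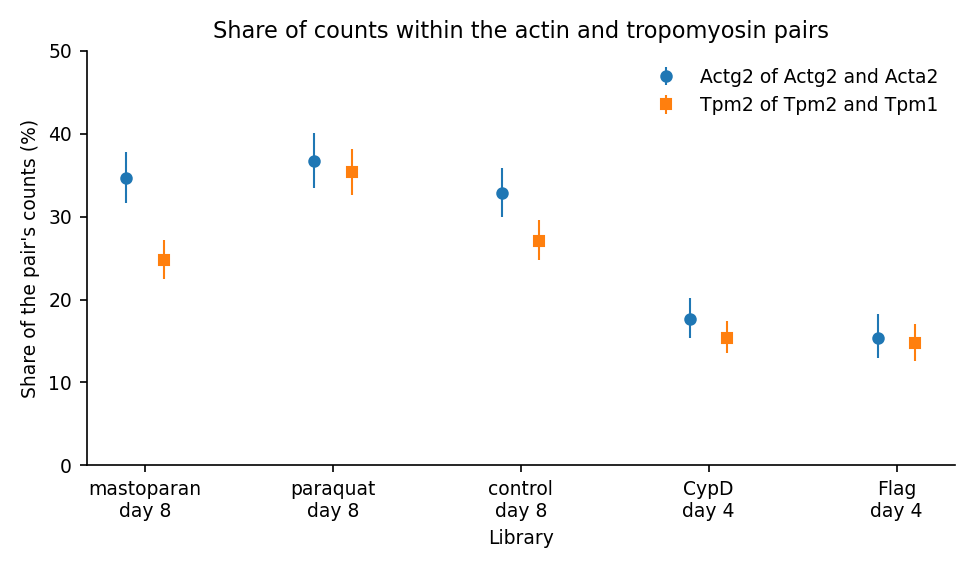
Share of the counts of the actin pair held by Actg2 and of the tropomyosin pair held by Tpm2 (vertical axis, percent, from 0) in each library, with 95% Clopper-Pearson intervals. The Actg2 share is 32.8% to 36.7% at day 8 and 15.4% to 17.7% at day 4, and the Tpm2 share of the paraquat library, 35.4%, stands above those of the other day-8 libraries.

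The day-8 control (untreated, labelled as expressing CypD) and the day-4 Flag library differ in day and in genotype label. The day-4 CypD library carries the same label as the day-8 control, and against it the control was also higher for Actg2 (107 against 53 CPM) and Tpm2 (121 against 61.4 CPM) and lower for Srf (46.4 against 77.9 CPM). Those libraries share the label but not the Ppif level (29.2 against 761 CPM). Actg2 had 329 counts in the day-8 control and 114 in the Flag library (2.37-fold higher, 1.91 to 2.96), Tpm2 374 and 153 (2.01-fold higher, 1.66 to 2.44), Tagln 474 and 214 (1.82-fold higher, 1.55 to 2.15) and Cnn2 465 and 251 (1.52-fold higher, 1.3 to 1.78). Srf had 143 counts in the day-8 control and 209 in the Flag library, 1.78 times lower in the control (interval of the fold 0.451 to 0.699). With Cnn1, from 7 counts against 3, 5 of 10 members were at least 1.5-fold higher, where 18.6% of 13540 genes were, and 1 of 10, Srf, was at least 1.5-fold lower, where 12.9% were. Among genes averaging 10 CPM or more in the pair, as every member but Cnn1 did, 11.6% were higher and 10.5% lower. The interval lay above 1 for 4 members (18.4% of all genes) and below 1 for 3 (18.9%), Srf, Acta2 (0.795 to 0.991) and Cald1 (0.798 to 0.985). The members split evenly, 5 above and 5 below 0 (50% of all genes each way), with a median log2 ratio of 0.25. Without Cnn1, at a minimum of 5 CPM, that median was -0.11.

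Markers of another cell type moved with the day. All 6 of 6 epithelial markers (Epcam, Cdh1, Krt8, Krt18, Krt5 and Krt14) were detected in every library and were higher in every day-8 library, where 28.5% of all genes were. Their summed TPM was 383 to 409 at day 8 against 133 to 150.3 at day 4. The fibroblast markers went both ways: in CPM, 3 of 9 (Col1a1, Pdgfrb and Thy1) were above and 4 (Col1a2, Vim, Dcn and Lum) below day 4 in every day-8 library. Over all genes 28.5% were above and 28.1% below. Most of the lower fibroblast sum was Vim, with 3033 to 3507 TPM at day 8 against 4004 to 4013 TPM at day 4. The 4 markers of pericytes, contractile cells of the vessel wall, summed to 18.2 to 21.4 TPM at day 8 and 16.3 to 18.5 TPM at day 4, but Rgs5 was lower at day 8 (3.51 to 3.9 against 11.3 to 16.2 CPM) and Cspg4 higher (112 to 116 against 66.7 to 66.9 CPM), while Abcc9 had no whole count in any library. Of the 7 differentiated smooth muscle markers 3 were above the minimum, and they too went both ways in CPM. Lmod1 and Des were above day 4 in every day-8 library and Smtn was below. Des had 8, 15 and 9 counts in the mastoparan, paraquat and control libraries against 6 and 1 with CypD and Flag. Lmod1 had 3, 3 and 8 against 2 and 2, so both rest on few counts. Of 4 neural markers 1, Tubb3, was lower in every day-8 library (14.7 to 20 against 52.4 to 57.6 CPM), as were 28.1% of all genes, and 3 overlapped. Of 4 blood markers Cd68 (13.4 to 17.2 against 5.13 to 7.53 CPM) and Csf1r (3 to 10 against 0 counts) were higher at day 8, as were 28.5% of all genes, and Adgre1 was at 0 throughout. The fibroblast markers also differed within day 8. In paraquat against control 2 of 9 were at least 1.5-fold lower and none higher (10.5% and 8.22% of all genes). The interval lay below 1 for 5 and above 1 for 1 (9.83% and 11.3% of all genes), with a median log2 ratio of -0.23. The part of all these markers in the members' levels was not tested.

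The first comparison of the study asks what CypD expression does at day 4, and no member stood out there. None of the 10 was at least 1.5-fold higher, where 5.22% of 13244 genes were, or lower, where 5.75% were, and every counting interval held 1, where 4.13% of all genes had one above 1 and 4.19% one below. Of genes averaging 10 CPM or more in the pair, as all members but Cnn1 do, 0.928% were higher and 1.27% lower. Few genes at the members' level thus passed 1.5-fold. Acta2 had 246 CPM with CypD against 247 CPM with Flag, a fold of 0.998 (0.899 to 1.11). Actg2 had the largest fold above 1, 1.18 (0.927 to 1.5), and Tagln the lowest, 0.888 (0.738 to 1.07). Srf had 77.9 CPM with CypD against 82.5 CPM with Flag, a fold of 0.944 (0.785 to 1.14). For the well-counted members the intervals are narrow, 0.880 to 1.05 for Tpm1 and 0.980 to 1.19 for Cald1; they leave out the spread between cultures. The log2 ratio was above 0 for 4 members and below 0 for 6 (47% and 53% of all genes), with a median of -0.01 against -0.02 over all genes.

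Mastoparan against the day-8 control asks what the peptide does at that time. No member was at least 1.5-fold higher (5.29% of 13640 genes) or lower (5.7%). At 10 CPM or more, 0.87% of genes were higher and 1.11% lower. Tpm1 was the only member with an interval off 1: it had 1037 against 1004 counts, or 364 against 326 CPM, a fold of 1.12 (1.02 to 1.22), where 4.08% of all genes had an interval above 1. No member had an interval below 1, where 3.28% of all genes did. Acta2 (fold 0.983, 0.879 to 1.10), Tpm2 (0.989, 0.852 to 1.15) and Srf (0.976, 0.763 to 1.25) lay close to 1. Tagln (0.922, 0.806 to 1.06) and Cnn2 (0.917, 0.800 to 1.05) were nominally lower, and Cald1 (1.09, 0.983 to 1.21) nominally higher. The log2 ratio was above 0 for 4 members and below 0 for 6 (51.3% and 48.7% of all genes), with a median of -0.02 against 0.01 over all genes.

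In the paraquat library some members were higher than in the same control, which the mastoparan comparison shares. Tpm2 had 410 against 374 counts, or 178 against 121 CPM, which is 1.46-fold higher (1.27 to 1.69). Actg2 had 313 against 329 counts, 136 against 107 CPM, 1.27-fold higher (1.09 to 1.49), and Cald1 had 268 against 240.3 CPM, 1.12-fold higher with an interval whose lower end rounds to 1 and whose upper end is 1.24. These 3 of 10 had an interval above 1, as did 11.3% of 13666 genes, and no member had one below 1, as did 9.83%. No member was at least 1.5-fold higher (8.22% of all genes), and 1, Cnn1 with 3 against 7 counts, was at least 1.5-fold lower (10.5%). At 10 CPM or more, 3.99% of genes were higher and 5.25% lower. Tagln (fold 1.12, 0.982 to 1.29), Srf (1.10, 0.856 to 1.42) and Acta2 (1.07, 0.951 to 1.20) were nominally higher, and Tpm1 (0.997, 0.905 to 1.10) and Cnn2 (1.02, 0.883 to 1.17) lay at 1. The median log2 ratio of the members was 0.15, with 8 of 10 above 0, against a median of -0.03 over all genes, of which 47.5% lay above 0.

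These values depended on the scale. On deposited TPM the median of all genes was itself -0.28, and the members' median was -0.17, which is 0.11 above it; Tpm2 was at 0.31, Actg2 at 0.08 and Cald1 at -0.08, or 0.59, 0.37 and 0.20 above the median of all genes. Short transcripts ran higher in the paraquat library, and with that trend along transcript length subtracted Tpm2 was at 0.34 and Actg2 at 0.17 (0.55 and 0.34 before), while the long transcripts Cald1 and Srf were at 0.33 and 0.31 (0.16 and 0.14 before).

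Set against each other, mastoparan and paraquat need no control library. Tpm2 had 120 CPM with mastoparan against 178 CPM with paraquat, a fold of 0.676 (0.584 to 0.782). Tagln, with 142 against 173 CPM, had a fold of 0.820 (0.712 to 0.944) and Actg2, with 114 against 136 CPM, one of 0.841 (0.718 to 0.985), and the interval of these 3 of 10 lay below 1, as for 10.4% of 13680 genes. Tpm1 was higher in the mastoparan library, 364 against 324 CPM (fold 1.12, 1.02 to 1.23), the only member with an interval above 1, as for 8.89% of all genes. No member passed 1.5-fold upward (9.27%) or downward (7.72%). At 10 CPM or more, 4.45% of genes passed it upward and 2.79% downward. The log2 ratio was above 0 for 3 members and below 0 for 7 (51.8% and 48.2% of all genes). Its median was -0.13, against 0.02 over all genes, and 0.14 on deposited TPM, where all genes had 0.22.

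**Figure D4:**
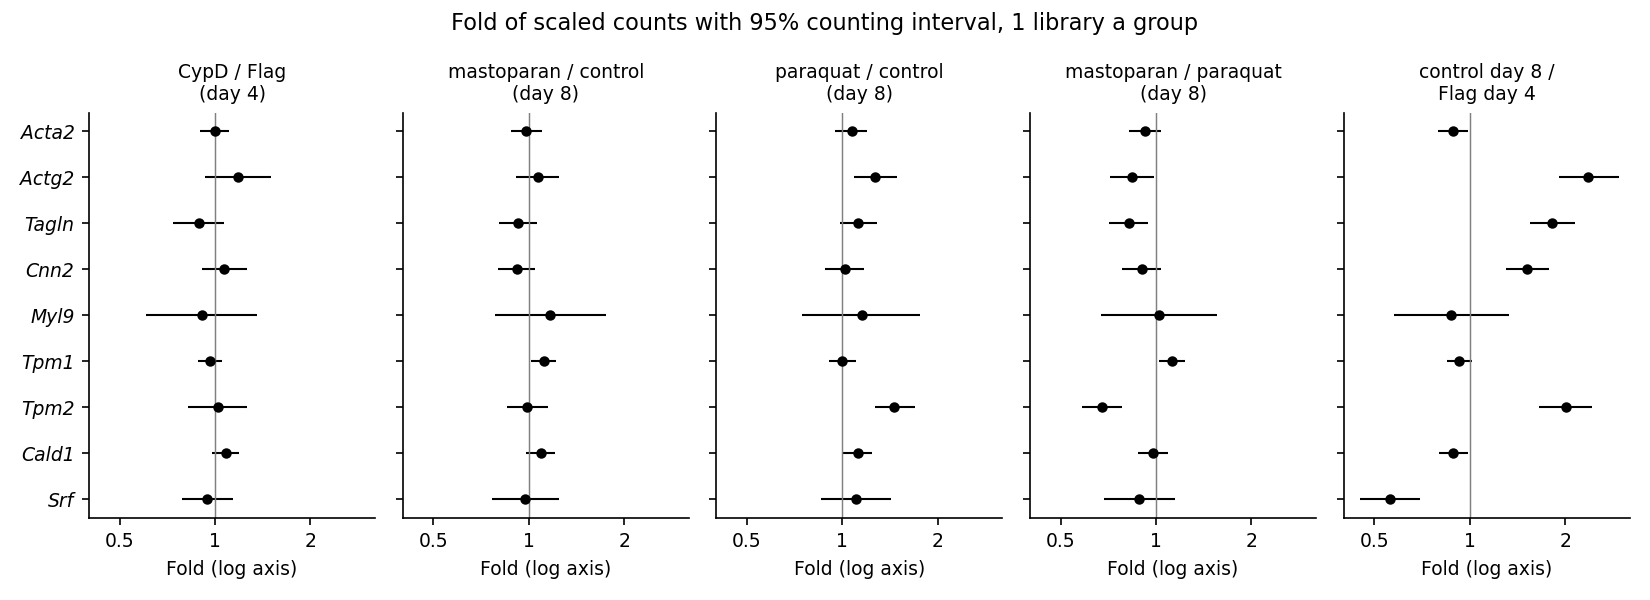
Fold of scaled counts (horizontal log axis) for 9 members, without Cnn1, in 5 comparisons, the first-named library over the second, with 95% counting intervals; the vertical line marks no difference. Every interval holds 1 for CypD over Flag, Tpm2 stands to the right for paraquat over control (1.46) and to the left for mastoparan over paraquat (0.676), and 4 members stand well to the right and Srf to the left for the day-8 control over Flag.

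The other genes of the pathway were counted from lists chosen by function, with earlier results of these data known. Of 24 cofactors and regulators of Srf, 22 were measured above the minimum. Mrtfa, the actin-sensing cofactor, had 19.7, 16.5 and 14.6 CPM in the day-8 mastoparan, paraquat and control libraries and 19.7 and 20.1 CPM in the CypD and Flag libraries, and its paralogue Mrtfb had 13, 15.2 and 18.8 CPM against 14.8 and 13.4 CPM. Both were low and their counting intervals between mastoparan and control held 1 (fold 1.35, 0.893 to 2.04, and 0.690, 0.444 to 1.06). In CypD against Flag 1 of 22 regulators was at least 1.5-fold lower and none higher (5.75% and 5.22% of all genes), with Fhl2, a cofactor that binds Srf, at 13 against 18 counts (fold 0.530, 0.239 to 1.14). The interval lay above 1 for 3 regulators and below 1 for 1 (4.13% and 4.19% of all genes). The lower one was the reprogramming factor Klf4, with 1276 against 1646 CPM (fold 0.775, 0.743 to 0.809). In mastoparan against control none passed 1.5-fold (5.29% of all genes higher, 5.7% lower).

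In paraquat against control 1 of 22 regulators was at least 1.5-fold higher and 4 were at least 1.5-fold lower, beside 8.22% and 10.5% of all genes. Klf4, a reprogramming factor that represses smooth muscle genes in vascular smooth muscle, had 860 CPM in the paraquat library and 1901 in the control (fold 0.452, 0.430 to 0.476); introduced and endogenous copies cannot be told apart. Rock1, a kinase downstream of RhoA that raises contractility, had 50 against 108 counts (fold 0.618, 0.433 to 0.873), and Diaph3, a formin that builds actin filaments, 34 against 72 (0.631, 0.407 to 0.961). Tmsb4x, which holds monomeric actin, was 1.51-fold higher (1.45 to 1.57). Diaph3, Rock1 and Klf4 had log2 ratios of -0.48, -0.48 and -1.08 with the length trend subtracted, and Tmsb4x, a short transcript, 0.26. In mastoparan against paraquat 2 of 22 regulators were at least 1.5-fold higher and none lower (9.27% and 7.72% of all genes), the Srf partner Elk1 with 63 against 32 counts (1.59, 1.03 to 2.52) and Klf4 with 1641 against 860 CPM (1.91, 1.81 to 2.01). In the day-8 control against Flag, where 18.6% of all genes were higher and 12.9% lower, 1 regulator was higher, Ssh1, a phosphatase that activates the actin-severing cofilin (95 against 43 counts, 1.82-fold, 1.25 to 2.67), and 2 were lower, among them Elk4 with 13 against 21 counts (0.509, 0.234 to 1.06).

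Of 49 other genes of the actin cytoskeleton and of smooth muscle, 44 were measured. In paraquat against control 2 were at least 1.5-fold higher and 4 at least 1.5-fold lower (8.22% and 10.5% of all genes). The intervals lay above 1 for 7 and below 1 for 13 of the 44, beside 11.3% and 9.83% of all genes. Vcl, vinculin of the focal adhesion, had 22 counts in the paraquat library and 90 in the control, 9.53 against 29.2 CPM (fold 0.327, 0.195 to 0.525). Myh9, the non-muscle myosin heavy chain, had 266 against 407 CPM (0.655, 0.594 to 0.722), and Myl6, a myosin light chain shared by smooth and non-muscle myosin, 988 against 688 CPM (1.44, 1.35 to 1.52). With the length trend subtracted their log2 ratios were -1.40, -0.40 and 0.09, so that Myl6 lay near 0 and Vcl still far below it. The list's median was -0.13, where the members' was 0.15.

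In CypD against Flag 3 genes of the same list were at least 1.5-fold higher, Tagln3, a transgelin of neurons, among them with 26 against 7 counts (2.73-fold, 1.15 to 7.44), and 1 was lower, of 44 (5.22% and 5.75% of all genes). The intervals lay above 1 for 2 and below 1 for 7 of the 44, beside 4.13% and 4.19% of all genes. Long transcripts ran lower and short ones higher with CypD, and these intervals keep that trend. With it subtracted, the log2 ratio of the long regulator Diaph1 went from -0.21 to -0.12. That of the short Ppp1r14a went from 0.52 to 0.39. Short of 1.5-fold, Tgfb1i1, a focal adhesion protein, had 98 against 49 counts (1.47-fold, 1.03 to 2.11). Ccn2, a secreted matrix protein and a target of Mrtf and Yap signalling, had 119 against 148 CPM (0.806, 0.699 to 0.930). In mastoparan against control 2 were at least 1.5-fold higher and 2 lower (5.29% and 5.7% of all genes). Synpo (26 against 46 counts, past 1.5-fold) and, short of it, Smtn (44 against 61), Flnc (64 against 88) and Ppp1r12a (35 against 29), had intervals that held 1. In the day-8 control against Flag 6 of 44 were at least 1.5-fold higher and 6 lower, beside 18.6% and 12.9% of all genes.

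Among these, Ppp1r14a, an inhibitor of myosin phosphatase, had 75 counts in the day-8 control and 16 in the Flag library (3.85-fold higher, 2.22 to 7.08), and was at 24.6, 26 and 24.3 CPM in the day-8 mastoparan, paraquat and control libraries against 9.27 and 6.31 CPM in the CypD and Flag libraries. Synpo, an actin-bundling protein, had 46 counts against 17 (2.22-fold, 1.25 to 4.14). Zyx, zyxin of stress fibres and focal adhesions, had 188 against 364 CPM (0.516, 0.464 to 0.573), and Fhl1, a LIM protein of muscle, 41 against 75 counts (0.449, 0.299 to 0.666). Over all 5 libraries 14 of the 44 were above and 17 below day 4 in every day-8 library, beside the 28.5% and 28.1% of all genes given above.

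**Figure D5:**
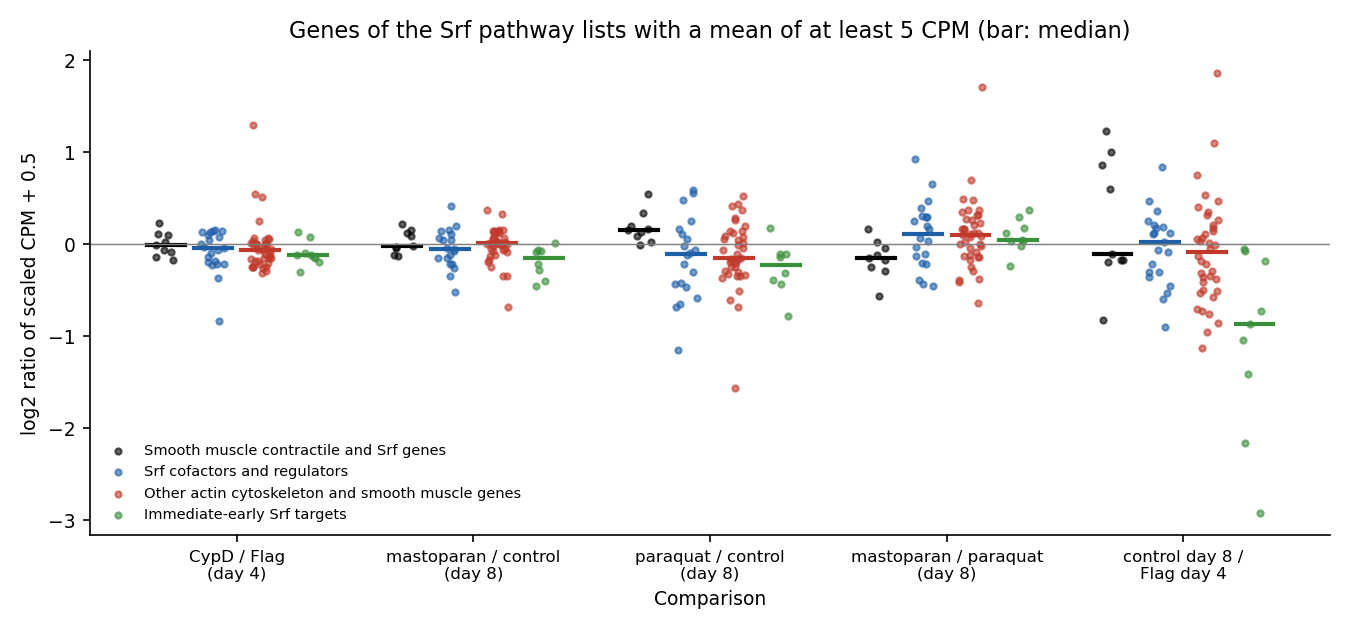
log2 ratio of scaled CPM + 0.5 (vertical axis) of the genes averaging 5 CPM or more in 4 lists (members, Srf cofactors and regulators, other actin cytoskeleton and smooth muscle genes, immediate-early Srf targets) in the 5 comparisons, the first-named library over the second; bars are medians. The members stay within -0.17 and 0.23 for CypD over Flag and spread from -0.82 to 1.24 for the day-8 control over Flag, and the lowest point for paraquat over control, -1.57, is Vcl.

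The genes whose pattern over the 5 libraries was most like that of Acta2 were Pcbp2 (an RNA-binding protein), Actg1 (cytoplasmic gamma actin), Fam3c, Vim (vimentin, the intermediate filament of fibroblasts) and P4hb (a protein disulphide isomerase). Likeness was the root-mean-square distance of centred log2 CPM among 7680 genes averaging 20 CPM or more, 0.02 for each of these 5. Actg1, for example, had 1741, 1914 and 1815 CPM in the day-8 mastoparan, paraquat and control libraries against 2077 and 2054 CPM in the CypD and Flag libraries. Myl9 and Cnn1 averaged less than 20 CPM and were not compared. Of the other members, Cald1 came nearest to Acta2 (distance 0.06), while Tagln (0.55), Tpm2 (0.66) and Actg2 (0.70) were among the farthest.

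The 5 genes nearest to Srf were Exo1 (a DNA repair exonuclease, distance 0.02), Xpo5 (an exporter of microRNA precursors, 0.03), Slc27a3 (a fatty acid transport protein, 0.04), Prpf3 (a splicing factor, 0.04) and Racgap1 (a regulator of cell division, 0.05). Xpo5 had 36.1, 39 and 36.6 CPM at day 8 against 63.7 and 66.3 CPM at day 4. No member compared was near Srf, the closest being Acta2 at 0.30, and Actg2 was at 0.99. With 5 libraries many genes have near-identical patterns, so these names describe the libraries alone.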

How the data were processed

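RNA-seq was deposited for 5 libraries of mouse embryonic fibroblasts, 1 a group. Per the submitters' processing notes, Bowtie2 2.2.5 and mm10 were used. The labels do not name the counting program or gene models. Deposited tables hold, per the file headers, an expected count, a TPM, an FPKM and an average transcript length for each gene. Every library's deposited TPM adds up to 1000000, and the deposited FPKM served as an alternative. Gene IDs were matched to GENCODE M21 (GRCm38, the assembly of mm10): 28756 of 29267 had a symbol.

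Expected counts were rounded and scaled by TMM factors (edgeR 4.0.16, R 4.3.3). Log2 ratios are of CPM + 0.5, over genes that average 1 CPM or more in the pair compared (all 5 libraries for day 8 against day 4). A fold divides the scaled counts of a pair, with an exact Clopper-Pearson 95% interval, and levels have Poisson intervals. Amplified reads are not independent molecules, and intervals cover counting error only. A member is called past 1.5-fold by its log2 ratio. Without replicates no p-value is given.

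All members are named; of each pathway list up to 4 genes with the largest absolute log2 ratio and at least 5 CPM are named, and the 5 genes nearest in pattern to Acta2 and to Srf. Myocd, Myh11 and other cell type markers come from marker lists. Members and lists were chosen with earlier results of these data known. Alternatives were library totals, DESeq2 1.42.0 and upper-quartile factors, deposited TPM and FPKM, pseudocounts of 0.1 and 2 CPM, no filter or 5 CPM, subtraction of medians of 40 transcript length bins, leaving out genes that share 20% of 49-base windows, and summed actin genes. The code was tested on simulated counts. Python 3.11.15, numpy 2.4.6, scipy 1.17.1, pandas 2.3.3 and matplotlib 3.10.9 were used.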

Additional observations from a re-analysis of the deposited data

How the results depend on the processing

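Of 500 values recomputed under the alternatives, 481 stayed within the main counting interval, 17 moved outside it and 2 changed sign after an interval off 1. Most of these changes came with deposited TPM, under which 37 values stayed, 12 moved and 1 changed sign. The 481 include 50 values without a filter and 45 at a minimum of 5 CPM. Those could not move, since a filter only sets which genes are kept. The values with actin genes summed are not of single members. On deposited TPM, Cald1 in paraquat against control was at -0.084 (log2 ratio; 0.16 as reported), and the members' median was -0.17 in paraquat against control and 0.14 in mastoparan against paraquat; the median of all genes was -0.28 and 0.22 there, and the cause was not tested. With Acta2, Actg2, Acta1 and Actc1 summed, the log2 ratio of Acta2 for the day-8 control against Flag turned to 0.15, since the sum takes in the higher Actg2. The medians of the other settings stayed within the interval of the main median in all 5 comparisons. No member shares 20% of its windows, so leaving out such genes changed no median. No paired analysis was possible because each group has 1 library, and no library could be left out. Depth limits Cnn1 (3 to 7 counts) and Myl9 (43 to 58 counts) most: for CypD against Flag their intervals were 0.166 to 6.68 and 0.606 to 1.36.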

Other observations

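Immediate-early genes are the other arm of Srf targets, reached through Elk cofactors within minutes of a stimulus. Of 10 on the list 9 were measured over all libraries, and 7 of them (Fos, Fosb, Egr1, Egr2, Ier2, Dusp1 and Mcl1) were below both day-4 libraries in every day-8 library, where 28.1% of all genes were. In the day-8 control against Flag, Fosb was 7.70 times lower (6.04 to 9.94) and Fos 2.66 times lower (2.36 to 3), with a list median of -0.86 on the log2 scale, and Srf was 1.78 times lower. In paraquat against control 1 of 9 was at least 1.5-fold higher and 1 lower (8.22% and 10.5% of all genes). No interval lay above 1 and 3 lay below (11.3% and 9.83%). Dusp1, a phosphatase of MAP kinases, was 1.72 times lower (1.32 to 2.28), Fos 1.31 times (1.11 to 1.54) and Egr1 1.24 times (1.11 to 1.39). With the length trend subtracted Dusp1 and Egr1 were at -0.82 and -0.19 (-0.78 and -0.31 before). In mastoparan against control 1 of 9 was at least 1.5-fold higher, Egr2 with 17 against 7 counts, and none lower (5.29% and 5.7% of all genes). The interval lay above 1 for 1 gene, Egr2, and below 1 for 2 (4.08% and 3.28% of all genes). Those 2 were Dusp1, 1.32 times lower (1.05 to 1.67), and Egr1, 1.21 times (1.09 to 1.35).

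The average transcript length in the deposited tables, which shifts with the mix of isoforms assigned to a gene, varied for members with several transcripts. For Cnn2 it was 2157.16, 2460 and 2188.12 bases in the day-8 mastoparan, paraquat and control libraries and 2286.31 and 2075.73 in the CypD and Flag libraries. For Myl9 it was 1128 bases in the mastoparan, paraquat and Flag libraries, 929.38 in the day-8 control and 823.76 in the CypD library. For Cald1 it was 3960.3 to 4094 bases in all 5. Tpm2 ranged from 1025.01 bases in the Flag library to 1254.7 in the CypD library. These lengths enter TPM and FPKM and rest on few reads.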
